A study of Mus musculus with 6 samples.

Results

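The small proline-rich (Sprr) proteins were described through the 10 genes Sprr1a, Sprr1b, Sprr2b, Sprr2d, Sprr2e, Sprr2f, Sprr2h, Sprr2i, Sprr3 and Sprr4, taken by symbol from a table of 19309 genes. All 10 were found, and 4 further rows of the family, Sprr2a1, Sprr2a2, Sprr2a3 and Sprr2k, were used in sums and to show how reads were divided among copies. The 6 RNA libraries came from both cheeks of 3 C57BL/6 mice, 6 to 8 weeks old, in a study whose title names MMP9, a matrix metalloproteinase, although the labels of these libraries give no MMP9 manipulation. In the AEW group, a model of dry skin, the shaved right cheek was wiped for 30 s with an equal mixture of acetone and ether and then for 30 s with distilled water. In the vehicle group, the left cheek of the same mice was wiped for 60 s with distilled water. Both were treated over 12 consecutive days and collected on day 12. AEW was always on the right side, so side and treatment cannot be told apart, and whole cheek tissue was used, so a change in the share of a cell type and a change of RNA per cell cannot be told apart either.

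Sprr proteins are short proteins rich in proline, glutamine and lysine, made by stratified epithelia late in differentiation. Transglutaminases join their glutamine and lysine residues to loricrin, involucrin and other proteins, and so build the cornified envelope that gives the outer epidermis its strength. In mouse skin Sprr1 and Sprr2 genes are known to be induced by injury, inflammation and barrier defects, whereas Sprr3 is known as a gene of the oral and oesophageal lining. The genes lie in 1 cluster in the epidermal differentiation complex on mouse chromosome 3. In the RefSeq annotation of GRCm38.p6 the members follow each other in the order Sprr2b, Sprr2d, Sprr2e, Sprr2f, Sprr2h, Sprr2i, Sprr1b, Sprr3, Sprr1a and Sprr4, with Sprr2k between Sprr2i and Sprr1b.

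The coding parts in GENCODE M21 (GRCm38) showed what the name describes. Proline codons made up 39.5% to 42.6% of the codons in the 6 Sprr2 members, 31.9% in Sprr1a, 30.7% in Sprr1b, 20.6% in Sprr3 and 17.1% in Sprr4. Sprr4 held more glutamine codons than proline codons, 19 against 13. The closest pair of members was Sprr2e and Sprr2i, whose coding parts were identical at 221 of 228 bases (96.9%). They are shown because reads from stretches that such copies share cannot be told apart, and capitals mark the 7 bases at which they differ.
Sprr2e: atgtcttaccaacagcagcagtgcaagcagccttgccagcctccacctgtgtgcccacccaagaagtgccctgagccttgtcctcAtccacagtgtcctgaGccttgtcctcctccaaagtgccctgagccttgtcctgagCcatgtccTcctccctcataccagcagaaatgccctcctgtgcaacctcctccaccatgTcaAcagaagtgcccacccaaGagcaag
Sprr2i: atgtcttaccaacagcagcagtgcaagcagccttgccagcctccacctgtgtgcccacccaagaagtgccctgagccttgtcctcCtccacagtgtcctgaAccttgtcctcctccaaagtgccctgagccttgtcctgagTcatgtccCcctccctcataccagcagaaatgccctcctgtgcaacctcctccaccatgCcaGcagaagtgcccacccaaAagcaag
Reads were 50 bases long, so the share of 50-base windows of a transcript that occurs exactly in a transcript of another gene bears on the counting. It was 12.5% for Sprr2i, 10.2% for Sprr2e, 13.7% for Sprr2b, 4.27% for Sprr2d and 0.714% for Sprr2f, and no window was shared for Sprr1a, Sprr1b, Sprr2h, Sprr3 or Sprr4. Values of single Sprr2 copies other than Sprr2h are therefore uncertain, and their sum is given beside them.

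The 250 bases before the RefSeq start (GRCm38.p6) are shown for 2 Sprr2 genes and both Sprr1 genes, because these hold a short motif in common. Capitals mark the AP-1 motif TGANTCA and the octamer ATTTGCAT, both searched on both strands; they do not overlap each other.
Sprr2d, chr3:92338890-92339139, plus strand: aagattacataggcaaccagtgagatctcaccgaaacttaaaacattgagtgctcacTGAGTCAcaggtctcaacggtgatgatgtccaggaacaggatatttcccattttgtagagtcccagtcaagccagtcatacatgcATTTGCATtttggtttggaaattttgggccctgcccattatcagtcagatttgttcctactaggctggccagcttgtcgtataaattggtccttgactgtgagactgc
Sprr2h, chr3:92385435-92385684, plus strand: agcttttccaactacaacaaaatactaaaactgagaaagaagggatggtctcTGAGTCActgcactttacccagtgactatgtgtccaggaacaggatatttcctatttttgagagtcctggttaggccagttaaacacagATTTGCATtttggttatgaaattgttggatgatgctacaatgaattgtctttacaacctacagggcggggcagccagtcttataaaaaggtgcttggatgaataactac
Sprr1b, chr3:92438780-92439029, minus strand: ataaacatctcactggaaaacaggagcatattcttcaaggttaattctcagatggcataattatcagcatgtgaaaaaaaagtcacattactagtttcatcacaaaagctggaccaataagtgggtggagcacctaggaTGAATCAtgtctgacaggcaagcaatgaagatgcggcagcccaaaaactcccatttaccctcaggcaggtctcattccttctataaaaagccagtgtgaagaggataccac
Sprr1a, chr3:92485882-92486131, minus strand: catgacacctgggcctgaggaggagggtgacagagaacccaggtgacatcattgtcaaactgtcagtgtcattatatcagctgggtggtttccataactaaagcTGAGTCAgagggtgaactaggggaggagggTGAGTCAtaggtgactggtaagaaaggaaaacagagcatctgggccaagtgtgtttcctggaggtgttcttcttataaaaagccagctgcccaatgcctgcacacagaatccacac
All 10 members had a window in the RefSeq table. The AP-1 motif was found in 8 of 10, in all 6 Sprr2 members, once in Sprr1b and 2 times in Sprr1a, and in 6.75% of 32851 windows of all genes. Its free middle base was A in Sprr1b (TGAATCA) and G in the matches of the other members (TGAGTCA). The octamer was found in 6 of 10, the Sprr2 members alone, and in 1.6% of all windows. In the Sprr2 members the AP-1 motif began 193 to 198 bases and the octamer 108 to 112 bases before the start. These are copies of 1 ancestral stretch, so the matches are not independent of each other. The core of the antioxidant response element, TGACNNNGC, was found in Sprr2f and Sprr1a, where it overlapped the first AP-1 match, and in 10.2% of all windows. The windows of Sprr3 and Sprr4 held none of the 3 motifs, and the Sprr4 model has a length of 231 bases, coding bases only, so its window may not lie before a transcription start.

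Library totals ran between 19120777 and 19506462 estimated counts in AEW skin and between 18449145 and 18522816 in vehicle skin. AEW replicate 1 stood apart from the other AEW libraries, with a chi-square per degree of freedom of 68.7 and 57.2 against them, while AEW replicates 2 and 3 differed by 19.7 and the vehicle libraries from each other by 19.1 to 26.5. Epidermal keratinocyte markers such as Krt10 and Krt14 summed to 19000 to 28200 CPM in AEW skin and 12500 to 18700 CPM in vehicle skin. CPM are reads scaled to a common library size and composition. Of the 8 markers 2 were higher, Krt1 and Krt14, and 0 lower. Krt10 did not pass (log2 fold change 0.55, edgeR adjusted p = 0.203). Krt15, Lor and Dsg1a had log2 fold changes below 0 that did not pass, at -0.76, -0.32 and -0.07. The summed AEW to vehicle ratio of the 8 markers was 1.53, 1.51 and 1.6 in mice 1, 2 and 3. Krt1 and Krt14 had means of 5580 and 5480 CPM in AEW skin, against 1500 and 2800 CPM in vehicle skin. The sum mixes them with markers that did not rise, so values per epidermal marker need not follow the share of epidermis. Skeletal muscle markers such as Acta1 and Tnnt3 summed to 9280 to 13200 CPM in AEW skin and 21700 to 32200 CPM in vehicle skin, with 0 of 7 higher and 6 lower. Oral mucosa markers such as Krt24 and Krt4 summed to 8.86 to 17.6 CPM in AEW skin and 12.3 to 16.8 CPM in vehicle skin. Hair follicle markers such as Krt71 and Krt25 had summed AEW to vehicle ratios of 6.31, 0.0386 and 1.61 in mice 1, 2 and 3, with 0 of 6 tested called. Immune markers such as Cd68 and Ptprc had ratios of 0.57, 1.95 and 1.93, with 1 of 6 higher and 0 lower. That one was S100a9, a neutrophil gene that stressed keratinocytes also express, at 3.28, 30.0 and 14.8 CPM in the AEW cheeks of mice 1, 2 and 3, against 1.42, 1.84 and 0.723 CPM in the vehicle cheeks (log2 fold change 3.59, edgeR adjusted p = 0.0352). Among fibroblast markers 1 of 6 was higher, Pdgfra, and among sebaceous gland markers 1 of 6 was lower, Mgst1. Among adipocyte markers 2 of 5 were lower, Adipoq and Cfd, and 0 of 4 endothelial markers passed. Krt1, Krt15, Lor, Dsg1a, S100a9, Pdgfra, Mgst1 and Adipoq were named after their values were seen. The part that these shifts have in the Sprr values was not tested, beyond the values scaled to the epidermal markers that stand beside the results.

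Sprr transcripts were far more abundant in AEW skin than in vehicle skin for Sprr1b and the Sprr2 genes, whereas Sprr1a and Sprr4, the 2 with the highest levels in vehicle skin, were higher in mice 2 and 3 and lower in mouse 1. Of the 10 members, 8 had counts high enough to be tested, of which edgeR's quasi-likelihood test, at an adjusted p below 0.05, called 6 higher and 0 lower. Over all 15109 tested genes, 4.85% were called higher and 6.8% lower. Of the 8, Sprr2d, Sprr2e, Sprr2f and Sprr2i reached 10 counts in all 3 libraries in AEW skin only, so they had to be high there to be tested at all. The other 4, Sprr1a, Sprr1b, Sprr2h and Sprr4, reached 10 counts in all 6 libraries, and 2 of them were called. The same 6 were called with the mouse as a block, where 1.99% of all genes were higher and 3.89% lower. With counts scaled to the epidermal markers, a setting added after seeing the data, 8 were higher and 0 lower, against 1.8% and 30.2% of all genes, whose median log2 fold change was then -0.61. The p-values of that setting rest on a spread shared by nearly all genes, so its calls are not comparable with the others. Every AEW library was above every vehicle library in 6 of the 8 tested members, against 17.4% of all tested genes. Sprr2d, Sprr2e, Sprr2f and Sprr2i, which had to be high in AEW skin to be tested, are among these 6. The untested Sprr2b and Sprr3 did not overlap either, at few counts. The count of 6 called members fell to 1, Sprr1b, without vehicle replicate 1 or without vehicle replicate 3. It fell to 0 with the mouse as a block and mouse 3 left out. Over all genes, those called higher numbered 33, 23 and 0 in these 3 fits, against 733 with all libraries, while the log2 fold change of the summed Sprr2 members was 4.50, 4.59 and 3.92. Without AEW replicate 1 the count was 8 members, and 1197 of all genes.

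**Figure D1:**
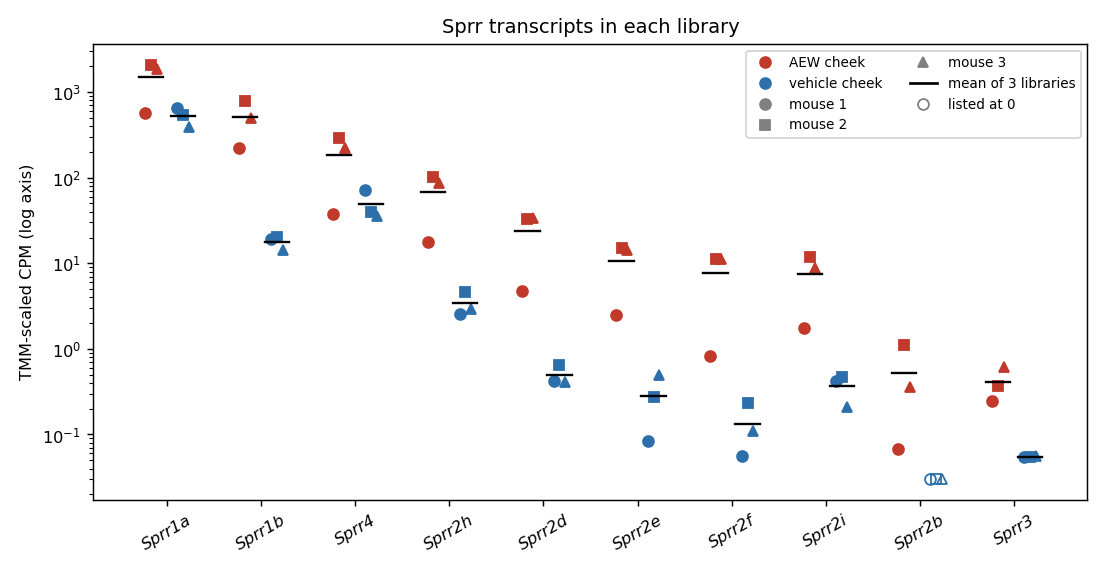
Level of each of the 10 Sprr genes in each library, in TMM-scaled CPM on a log axis, with AEW cheeks in red and vehicle cheeks in blue; the symbol gives the mouse and the line the mean of 3 libraries. The groups overlap for Sprr1a and Sprr4, and the 3 vehicle libraries of Sprr2b are listed at 0.

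Sprr1b, an envelope precursor of stressed and wounded epidermis, gave the firmest difference. Sprr1b (gene 20754) stood at 224, 792 and 503 CPM in the AEW cheeks of mice 1, 2 and 3, and at 19, 20.5 and 14.2 CPM in the vehicle cheeks. The lowest AEW library was far above the highest vehicle library. Means were 506 ± 284 CPM in AEW skin and 17.9 ± 3.3 CPM in vehicle skin (SD, n = 3 each). On the log2 scale this was a fold change of 4.82 ± 0.48 (SE, 95% interval 3.69 to 5.96, edgeR adjusted p = 0.00582). Leaving out any 1 of the 6 libraries kept the call of Sprr1b, with edgeR adjusted p up to 0.0394, whereas the block without mouse 3 gave 0.219. Within the mice its AEW to vehicle ratio was 11.8, 38.7 and 35.5, and per summed epidermal marker it was 7.73, 25.6 and 22.2.

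Its neighbour in sequence, Sprr1a, behaved otherwise in mouse 1. Sprr1a (gene 20753), whose coding part is 78.6% identical to that of Sprr1b, stood at 566, 2090 and 1840 CPM in the AEW cheeks of mice 1, 2 and 3, against 661, 547 and 386 CPM in the vehicle cheeks. The AEW cheek of mouse 1 lay within the vehicle range, so the groups overlap. The AEW to vehicle ratio was 0.856 in mouse 1 (95% exact binomial interval 0.834 to 0.878, counting error only), 3.82 in mouse 2 and 4.78 in mouse 3. The log2 fold change, 1.5 ± 0.47 (SE, interval 0.40 to 2.59), did not pass (edgeR adjusted p = 0.0796). Dropping AEW replicate 1 gave 1.88 (edgeR adjusted p = 0.00636), and DESeq2 called it with all libraries (adjusted p = 0.0197). Scaled to the epidermal markers it was 0.73 (edgeR adjusted p = 0.0496, not comparable with those of the other fits).

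Sprr4, described in human skin as a gene induced by ultraviolet light, showed the same split between mice. Sprr4 (gene 229562) stood at 37.4, 291 and 225 CPM in the AEW cheeks, against 71.3, 39.5 and 35.3 CPM in the vehicle cheeks of mice 1, 2 and 3. In mouse 1 the AEW to vehicle ratio was 0.524 (interval 0.478 to 0.574), and in mice 2 and 3 it was 7.35 and 6.36. Mouse 1 also had the highest vehicle value. The log2 fold change, 1.92 ± 0.68 (SE, interval 0.32 to 3.52), did not pass either (edgeR adjusted p = 0.109). Dropping AEW replicate 1 gave 2.39 (edgeR adjusted p = 0.00757). Scaling to the epidermal markers gave 1.08 (edgeR adjusted p = 0.00232, not comparable with those of the other fits). The lower levels of Sprr1a and Sprr4 in the AEW cheek of mouse 1 came with a ratio of epidermal markers of 1.53, and per epidermal marker their ratios there were 0.561 and 0.343.

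**Figure D2:**
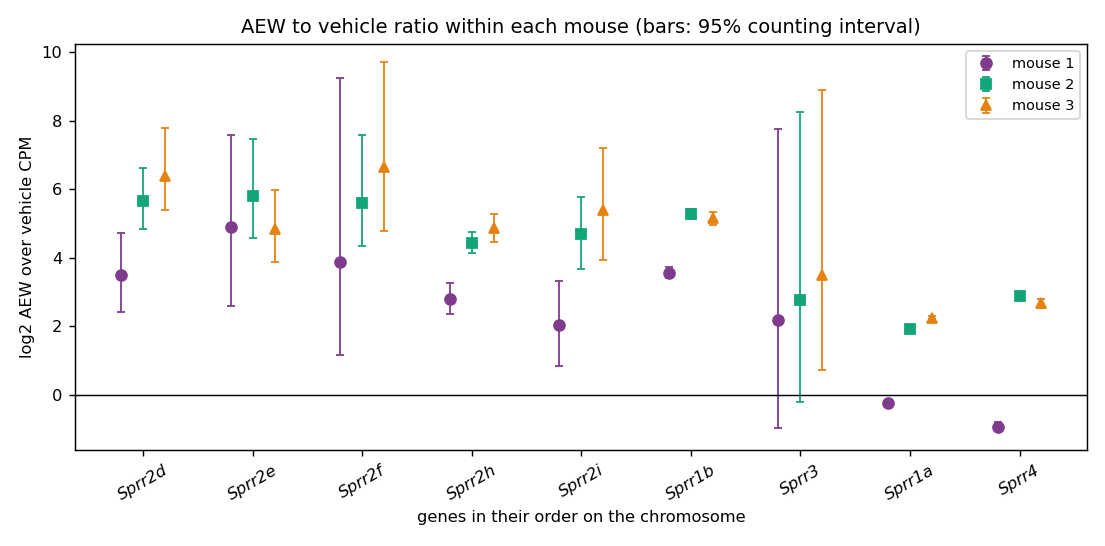
Log2 ratio of AEW to vehicle CPM within each mouse for the 9 members with counts in every library, in gene order along the chromosome; bars are 95% exact binomial intervals and cover counting error only. Sprr1a and Sprr4 lie below 0 in mouse 1, and all other values are above 0.

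The Sprr2 genes, the largest subfamily of envelope precursors, were at low levels in vehicle skin. Sprr2h (gene 20762) had the highest CPM of the 6 Sprr2 members and no window shared with another gene. It stood at 17.7, 102 and 85.9 CPM in the AEW cheeks of mice 1, 2 and 3, against 2.57, 4.68 and 2.95 CPM in the vehicle cheeks. Every AEW library was above every vehicle library. Its log2 fold change was 4.33 ± 0.68 (SE, interval 2.73 to 5.92, edgeR adjusted p = 0.0152). It did not pass without vehicle replicate 1 (adjusted p = 0.0718) or vehicle replicate 3 (adjusted p = 0.0853).

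Sprr2d (gene 20758) had 97, 625 and 660 counts in the AEW cheeks, against 8, 12 and 7 counts in the vehicle cheeks, rounded to whole counts. Its log2 fold change was 5.58 ± 0.84 (SE, edgeR adjusted p = 0.0142). Sprr2e (gene 20759) had 50, 290 and 274 counts in the AEW cheeks, against 2, 5 and 9 counts in the vehicle cheeks. Its ratios, 30.1, 55.6 and 28.8 in mice 1, 2 and 3, were the most even point values among the members. At so few vehicle counts this evenness is uncertain, with a counting interval of 5.98 to 193 in mouse 1. The intervals of the 3 mice overlap, as they also do for Sprr2f and Sprr3. The log2 fold change of Sprr2e was 5.15 ± 0.84 (SE, edgeR adjusted p = 0.017). Sprr2d and Sprr2e passed without any single AEW library or vehicle replicate 2, and neither passed without vehicle replicate 1 (adjusted p = 0.0703 for Sprr2d and 0.073 for Sprr2e) or vehicle replicate 3 (0.0809 and 0.0762).

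Sprr2f (gene 20760) had 16, 215 and 215 counts in the AEW cheeks, against 1, 4 and 2 counts in the vehicle cheeks. Its estimate was the highest of the tested members, 5.85 ± 1.15 on the log2 scale (SE, edgeR adjusted p = 0.0266). Its interval, 3.15 to 8.55, holds the estimates of the other Sprr2 members tested. It did not pass in the 5 fits that left out AEW replicate 2 or 3 or any vehicle replicate (adjusted p from 0.0562 to 0.125). Sprr2i (gene 20763) had 35, 228 and 172 counts in the AEW cheeks, against 8, 9 and 4 counts in the vehicle cheeks. Its log2 fold change was 4.27 ± 0.77 (SE, edgeR adjusted p = 0.021, or 0.0493 in the block fit), and it did not pass in the 4 fits without AEW replicate 2 or any vehicle replicate (adjusted p from 0.0526 to 0.108).

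The sum of the 6 Sprr2 members does not depend on how reads were divided among them. It stood at 27.7, 174 and 155 CPM in the AEW cheeks of mice 1, 2 and 3, against 3.55, 6.31 and 4.17 CPM in the vehicle cheeks. Fitted as 1 row in the whole table, the sum differed by 4.66 ± 0.71 on the log2 scale (SE, interval 2.99 to 6.34, edgeR adjusted p = 0.0145). Mouse 1 had the lowest AEW to vehicle ratio, 7.79, with a counting interval up to 10.2 that lay below those of mouse 2 (ratio 27.6, from 22.9) and mouse 3 (ratio 37.1, from 29.5). Per epidermal marker the ratios were 5.1, 18.3 and 23.2. With counts scaled to those markers, the log2 fold change was 3.95. The sum did not pass without vehicle replicate 1 (adjusted p = 0.0704) or vehicle replicate 3 (adjusted p = 0.0817).

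Most Sprr2 counts fell on 3 further rows, Sprr2a1, Sprr2a2 and Sprr2a3, whose separate values cannot be read. All windows of the shorter Sprr2a2 transcript (100%) occur in another gene, as do 96.3% of those of Sprr2a1 and 47.4% of those of Sprr2a3. In the AEW cheeks of mice 1, 2 and 3, Sprr2a1 was listed with 3.76, 7811.88 and 2.26 counts and Sprr2a2 with 2005.48, 1782.49 and 3914.12. In the vehicle cheeks Sprr2a1 had 196.25, 148.41 and 53.83 counts, and Sprr2a2 had 0, 148.41 and 53.83, the same value for both genes in mice 2 and 3. The division thus changed from library to library. Summed, the Sprr2a rows stood at 158, 857 and 336 CPM in the AEW cheeks, against 16.6, 26.1 and 9.15 CPM in the vehicle cheeks. With all 10 Sprr2 rows of the table summed, the log2 fold change was 4.70 (edgeR adjusted p = 0.0129), close to the 4.66 of the 6 members.

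**Figure D3:**
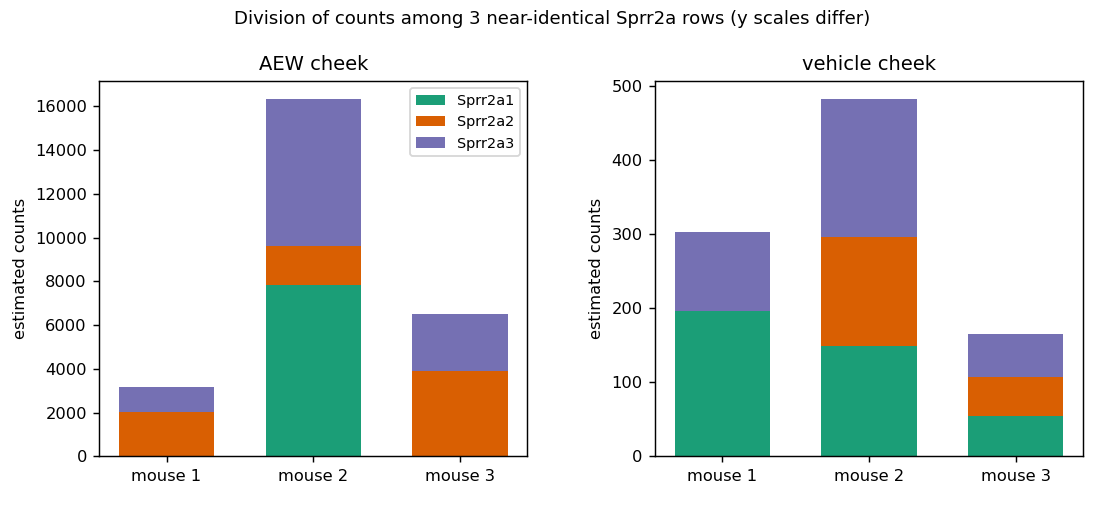
Estimated counts of Sprr2a1, Sprr2a2 and Sprr2a3 in the AEW (left) and vehicle (right) cheek of each mouse, stacked; the y scales differ. Sprr2a1 takes 7811.88 counts in the AEW cheek of mouse 2 and 3.76 and 2.26 in those of mice 1 and 3, while the stacks as a whole are higher in all AEW cheeks.

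Sprr2b and Sprr3 were too low to be tested. Sprr2b (gene 20756) had 1.35, 21.36 and 6.98 counts in the AEW cheeks and was listed at 0 in all 3 vehicle cheeks. With an assumed floor of 3 counts over the vehicle group, its pooled ratio was 9.37, a point value without an interval. The 13.7% of its windows that are shared occur in the Sprr2a genes. Whether some of its counts belong to those genes was not tested. Sprr3 (gene 20766) had 5, 7 and 12 counts in the AEW cheeks and 1 count in each vehicle cheek, a ratio over the groups of 7.49 (95% exact binomial interval 2.28 to 38.9, counting error only). With no filter on low counts, where 3.51% of 18684 genes were called higher and 5.1% lower, Sprr3 passed at a log2 fold change of 2.76 (edgeR adjusted p = 0.0444) and Sprr2b did not (adjusted p = 0.106). The oral mucosa marker Krt13, like Sprr3 a gene of moist linings and named here after its values were seen, stood at 0.525 to 1.12 CPM in AEW skin and 0.951 to 1.33 CPM in vehicle skin.

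**Figure D4:**
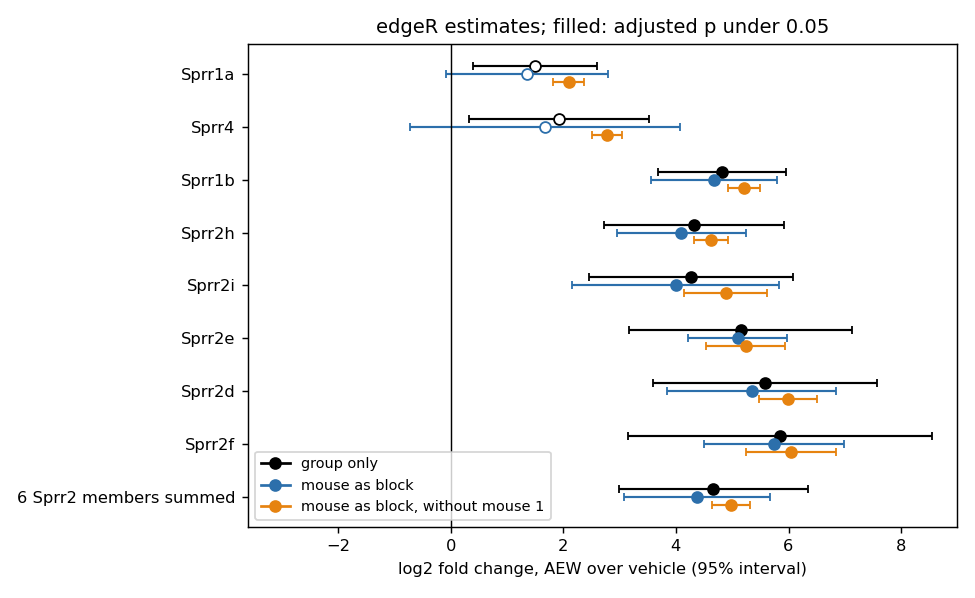
Log2 fold change, AEW over vehicle, with its 95% interval for the 8 tested members and the sum of the 6 Sprr2 members, from edgeR with group alone, with the mouse as a block, and with the block and mouse 1 left out; filled points have an adjusted p under 0.05. Sprr1a and Sprr4 are open in the first 2 fits, at 1.5 and 1.92 and at 1.36 and 1.68, and filled without mouse 1, at 2.10 and 2.77.

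Levels of different genes were compared in TPM, which is scaled for length by the authors. In vehicle skin Sprr1a had the highest mean, 1150 ± 291 TPM, followed by Sprr4 at 429 ± 167 TPM and Sprr1b at 37.3 ± 7.07 TPM (SD, n = 3), with no overlap between the ranges of these 3. Sprr2h followed at 7.81 ± 2.72 TPM, and the other Sprr2 members and Sprr3 were at 1.26 TPM or less. In AEW skin the means were 3360 ± 1770 TPM for Sprr1a, 1670 ± 1160 TPM for Sprr4 and 1080 ± 563 TPM for Sprr1b, and the ranges of the first with the second and of the second with the third overlapped. Sprr2h was at 161 ± 102 TPM, above Sprr2d at 62.7 ± 43.2 TPM in all 3 libraries, and Sprr2e, Sprr2f and Sprr2i followed at 29.4, 22.8 and 21.8 TPM with ranges that overlapped. The TPM of Sprr4 rests on the length of its gene model.

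The make-up of the transcripts of the 10 members differed between the cheeks in every mouse. The Sprr2a rows are not in these shares and ratios. Their summed mean was 495 TPM in AEW skin and 17.8 TPM in vehicle skin, against 299 and 11.3 TPM for the 6 Sprr2 members. Sprr1b made up 22.3%, 18% and 14.1% of the summed TPM of the 10 members in the AEW cheeks of mice 1, 2 and 3, against 1.87%, 2.68% and 2.49% in the vehicle cheeks. Sprr1a made up 58.7%, 49.4% and 54% in the AEW cheeks, against 67.9%, 74.5% and 70.4% in the vehicle cheeks. The ratio of Sprr1b to Sprr1a TPM was 0.38, 0.364 and 0.262 in the AEW cheeks, against 0.0276, 0.036 and 0.0353 in the vehicle cheeks. This difference in ratio, of 3.34 on the log2 scale, had a two-sided exact permutation p of 0.1, the smallest that 3 against 3 unpaired libraries allow, and 0.15 adjusted over the 3 ratios computed. The permutations of all 3 ratios took the libraries as independent and did not use the pairing of cheeks by mouse. The ratio of the 6 Sprr2 members to Sprr1a was 0.0545, 0.0939 and 0.0948 in the AEW cheeks, against 0.00594, 0.0127 and 0.012 in the vehicle cheeks (exact permutation p = 0.1, adjusted p = 0.15, n = 3 each). The ratio of Sprr4 to Sprr1a overlapped between the groups, at 0.269, 0.566 and 0.495 in the AEW cheeks, against 0.439, 0.294 and 0.373 in the vehicle cheeks (exact permutation p = 0.6, adjusted p = 0.6, n = 3 each).

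**Figure D5:**
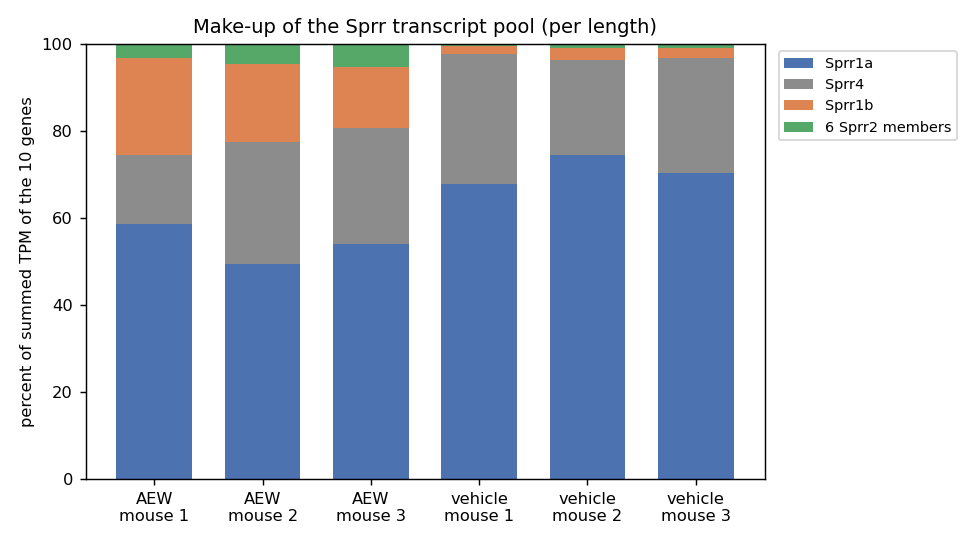
Share of the summed TPM of the 10 members held by Sprr1a, Sprr4, Sprr1b and the 6 Sprr2 members in each library, in percent; Sprr3 is too low to be drawn. Sprr1b holds 14.1% to 22.3% in the AEW cheeks and 1.87% to 2.68% in the vehicle cheeks.

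Summed over the 10 members, AEW cheeks stood at 855, 3350 and 2730 CPM and vehicle cheeks at 755, 614 and 439 CPM in mice 1, 2 and 3. Because Sprr1a holds most of this sum, the AEW to vehicle ratio was 1.13 in mouse 1, against 5.46 in mouse 2 and 6.21 in mouse 3. Of the 10 members 8 were higher and 2 lower in mouse 1, and all 10 were higher in mouse 2 and in mouse 3. Of all tested genes 49.3%, 49.2% and 50.6% were higher in mice 1, 2 and 3. The 10 include Sprr2b and Sprr3, at few counts, and Sprr2d, Sprr2e, Sprr2f and Sprr2i, which had to be high in AEW skin to be tested. Among 13541 other genes, those whose log2 AEW to vehicle differences in the 3 mice lay nearest to those of this sum (0.18, 2.45 and 2.63) were Mmp13, a collagenase, Slc26a9, an anion transporter, Aadacl4fm5, Endou, an endoribonuclease, and Fosl1, the AP-1 subunit Fra-1. Their root mean square distances over the 3 mice were 0.111, 0.176, 0.254, 0.259 and 0.317. Mmp13 had differences of 0.17, 2.59 and 2.76, and Fosl1 of 0.14, 1.93 and 2.80. These were computed after adding 0.5 CPM to each value, which shrinks the differences of genes at low levels. Fosl1 stood at 0.319 CPM in the vehicle cheek of mouse 3, so its nearness to the sum depends on this addition.

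Partners, the genes of proteins that share the envelope with Sprr proteins or cross-link them, were read from the same fit. Of 19 partners tested, 5 were higher and 0 lower, where 4.85% of all tested genes were higher and 6.8% lower. Their median log2 fold change was 0.52, against 0.01 over all tested genes. Tgm3, a transglutaminase that cross-links Sprr proteins, stood at 44.8 ± 12.6 CPM in AEW skin and 11.2 ± 3.63 CPM in vehicle skin, a log2 fold change of 2.00 ± 0.28 (SE, edgeR adjusted p = 0.0123). Tgm1, the other main epidermal transglutaminase, had a log2 fold change of 0.78 that did not pass (edgeR adjusted p = 0.0816), and passed in the block fit at 0.0467. Flg and Rptn, the filaggrin and repetin genes, were higher by 2.37 and 2.43 on the log2 scale (adjusted p = 0.0125 and 0.0267), and Cnfn, the cornifelin gene, rose by 1.05 (adjusted p = 0.026). The fifth, Ivl, the involucrin gene, named after its values were seen, had a log2 fold change of 1.10 (adjusted p = 0.0341, and 0.0525 with the block). Lor, the loricrin gene, which is also on the keratinocyte list, had a log2 fold change of -0.32 and did not pass (adjusted p = 0.283). No partner was called without vehicle replicate 1 or vehicle replicate 3, and 3 were higher without vehicle replicate 2 or AEW replicate 3. Scaled to the epidermal markers, 3 partners were higher (Tgm3, Flg and Rptn) and 3 lower (Lor, Flg2 and Ppl). In that setting 1.8% of all tested genes were higher and 30.2% lower.

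Of 21 transcription regulators with described roles at Sprr or other epidermal differentiation genes, 5 were higher and 0 lower, where 4.85% of all tested genes were higher and 6.8% lower. Their median log2 fold change was 0.30, against 0.01 over all tested genes. Elf3, an epithelial Ets factor, stood at 2.77 ± 0.85 CPM in AEW skin and 0.711 ± 0.0496 CPM in vehicle skin, a log2 fold change of 1.95 ± 0.32 (SE, edgeR adjusted p = 0.017, or 0.0505 in the block fit). Ovol1, a zinc finger factor of epidermal differentiation, rose by a log2 fold change of 1.10 ± 0.20 (adjusted p = 0.0206), and Zfp750, another zinc finger factor, by 0.57 (adjusted p = 0.0393). The AP-1 subunit Fosl2, named after its values were seen, had 0.46 (adjusted p = 0.0492, and 0.067 with the block). Fosl1 stood at 2.02, 6.53 and 5.22 CPM in the AEW cheeks, against 1.79, 1.35 and 0.319 CPM in the vehicle cheeks, and did not pass (log2 fold change 1.97, adjusted p = 0.0857). The other Fos and Jun genes of the list, also named after their values were seen, did not pass either. Their log2 fold changes were 0.67 for Junb, -0.02 for Jun, -0.004 for Jund, -0.29 for Fos and -1.35 for Fosb. No regulator was called without AEW replicate 2, vehicle replicate 1 or vehicle replicate 3, 2 were higher without AEW replicate 3, 3 without vehicle replicate 2 and 10 without AEW replicate 1. Scaled to the epidermal markers, 3 regulators were higher (Elf3, Fosl1 and Ehf) and 2 lower (Fosb and Keap1), where 1.8% of all tested genes were higher and 30.2% lower. Zfp750 and Fosl2 turned negative there, at -0.06 and -0.18, above the median of all tested genes of -0.61.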

How the data were processed

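RNA was sequenced from 6 cheek libraries, 3 AEW and 3 vehicle, as single reads of 50 bases from poly(A)-selected RNA, per the labels' protocols. For each library the authors deposited estimated counts, TPM and FPKM in 1 table, per the file headers. Their FPKM and group means were not used. The submitters' processing notes name HISAT and GRCm39. For the counting tool, the annotation and strand, the sources used here say nothing. Sequences come from RefSeq and GENCODE tables of GRCm38, so no coordinates other than theirs are printed.

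Estimated counts, fractional for 53.9% to 57.2% of genes in a library, were rounded. Genes were kept with filterByExpr at a minimum count of 10 (15109 genes), scaled with TMM and tested with edgeR 4.0.16 (R 4.3.3; quasi-likelihood, group only), with Benjamini-Hochberg adjustment over all tested genes at 0.05. Levels are TMM-scaled CPM. The test was checked on simulated counts. Ratio intervals are exact binomial, for counting error alone. Alternatives were DESeq2 1.42.0, its size factors, no filter, limma 3.58.1 on log2(TPM + 1) and log2(TPM + 0.1), the mouse as a block, and libraries or mice left out. A scaling to the summed epidermal keratinocyte markers was added after seeing the data. The numbers pair both cheeks of a mouse, per the labels. The 2 cheeks' deviations from their groups had correlations of -0.244, -0.165 and -0.246. All pairs of libraries within a group differed by more than sampling noise.

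The members and lists were chosen with earlier results of these data known. All members are named, with the 4 partners and 4 regulators of smallest p, the 5 genes nearest to the summed members in log2 difference per mouse (log2(CPM + 0.5)), and the 2 markers of a list with the highest CPM. The values of 1 gene that this rule names are not reported here. The promoter motifs and the sequences printed were chosen after the sequences were seen.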

Additional observations from a re-analysis of the deposited data

How the results depend on the processing

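With 3 mice, single libraries decide several counts, and members that reached 10 counts in only 1 library (Sprr2b and Sprr3) were not tested. The same 6 members were called with DESeq2's size factors, limma at either pseudocount and the replicate block, and DESeq2 added Sprr1a. Over 128 estimates of the tested members under other settings none changed sign. Sprr2d, Sprr2e, Sprr2f and Sprr2i had to be high in AEW skin to be tested, so their signs are little check. Every setting also holds mouse 2 or mouse 3. The ratios of Sprr1a and Sprr4 in mouse 1, 0.856 and 0.524, thus never stood alone. Leaving out 1 library gave 1 to 8 members higher, 0 to 7 partners, 0 to 10 regulators, 23 to 1197 of all genes higher and 117 to 1041 lower, and put the Sprr2 sum between 4.27 and 5.12. With the replicate block, 300 genes were higher and 588 lower. With the block and 1 mouse left out there were 0 to 8 members higher, 0 to 9 partners (3 without mouse 2) with up to 1 lower, and 0 to 10 regulators (1 without mouse 2). All genes higher then numbered 1922, 112 and 0 and lower 1588, 279 and 0 without mouse 1, 2 and 3, and the Sprr2 sum was 3.92 without mouse 3 (edgeR adjusted p = 0.221). With all mice in, the block changed no member's call. DESeq2 called 10 regulators and 1362 genes higher and 1 partner lower, and limma called 666 genes lower at both pseudocounts. The cause of these shifts was not tested.

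Scaling to the summed epidermal keratinocyte markers was chosen after seeing the data. It called 8 members higher, 3 partners higher and 3 lower, 3 regulators higher and 2 lower, and 272 genes higher and 4556 lower, with the median of all genes at -0.61. The Sprr2 sum was 3.95 (edgeR adjusted p = 8.82e-29). The prior degrees of freedom of this fit were 8480, against 3.12 with TMM, so its p-values rest on a spread shared by nearly all genes and are not comparable with the others.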
